A study of Mus musculus with 14 samples.

Results

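The 9 genes described here encode the 5 lysyl oxidases of the mouse, the procollagen C-proteinases *Bmp1* and *Tll1*, and the C-proteinase enhancers *Pcolce* and *Pcolce2*. They were taken by name, and all 9 were found, among 39179 genes in the table of the differentiation experiment and among 35886 genes in the sorting experiment. The cells were Ocy454, a mouse osteocyte-like line that divides at a permissive temperature through a thermosensitive large T antigen and matures at body temperature. All libraries came from this line, and the labels give no genotype or treatment that sets groups apart. For differentiation, RNA was sequenced after 1, 7, 10 and 14 days at body temperature, with 2 libraries a day. For the sort, cells kept there for 17 days per the labels were stained for CD61, the integrin beta-3 subunit, and live cells were taken from the brightest 10% (CD61 high) and the dimmest 10% (CD61 low), with 3 libraries for each. The study's text is not uniform on the day of the sort. The study describes the differentiation libraries as biological duplicates and the sorted ones as coming from 3 independent groups of cells; whether these began as separate thaws is not given in the sources used here, and p-values measure the spread between these samples.

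Fibrillar collagen is secreted as procollagen, and its C-terminal propeptide has to be cut off before the molecules assemble into fibrils. The tolloid-type metalloproteinases BMP1 and TLL1 make this cut, and the secreted glycoproteins PCOLCE and PCOLCE2 bind the propeptide and speed it up. Lysyl oxidases are copper enzymes that oxidise lysine and hydroxylysine in collagen and elastin to aldehydes, from which covalent cross-links form, and BMP1 also removes the propeptide of the LOX precursor. Osteoblasts use all of these steps to lay down bone matrix, and osteocytes are the cells that become buried in it.

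The members lie on 7 chromosomes. In GENCODE M39 on GRCm39, *Lox* is at chr18:52649136-52663110 on the minus strand, *Loxl1* at chr9:58195014-58220495 (minus), *Loxl2* at chr14:69846209-69933283 (plus), *Loxl3* at chr6:83011152-83029543 (plus) and *Loxl4* at chr19:42580711-42601252 (minus). *Bmp1* is at chr14:70711689-70758178 (minus), *Tll1* at chr8:64466142-64659305 (minus), *Pcolce* at chr5:137603365-137612046 (minus) and *Pcolce2* at chr9:95519466-95580207 (plus). Some of these loci overlap other protein-coding genes: *Loxl3* shares 1947 bases with *Htra2* on the opposite strand, *Pcolce* 1282 bases with *Fbxo24* on its own strand, *Loxl2* 943 bases with *R3hcc1* and *Loxl4* 78 bases with *R3hcc1l*, both on the opposite strand. Whether counting used strand is not given in the sources used here, so reads in these stretches cannot be told apart.

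Levels in the differentiation experiment are CPM (reads per 1000000 reads counted), from 27518605 to 34311238 reads a library, and levels in the sort are CPM after trimmed-mean (TMM) scaling of 18815602 to 19220064 estimated counts a library. Of 9 osteoblast and osteocyte markers, 8 were tested in both experiments. The summed level of all 9 was 735 to 737 CPM on day 1 and 2812 to 2815 on day 14, with *Sost* and *Mepe* at 0 on day 1. On day 14, 6 of the tested ones were called higher by the criteria given below, against 7.51% of all genes, and in the sort 7, against 4.84%. *Pdpn*, the early osteocyte gene podoplanin, was lower in both, at 28.2 and 19.3 CPM as means of days 1 and 14 (limma, adjusted p = 2.4e-07) and at 15.5 in CD61 low and 11.1 in CD61 high (edgeR, adjusted p = 0.0079). In the sort the sum was 1198 to 1477 in CD61 low, where *Mepe* was at 0, and 4562 to 4765 in CD61 high. The 4 adipocyte and 3 endothelial markers stayed under 1 CPM each in every group mean. The 4 macrophage markers summed to 12.3 to 15.4 in CD61 low and 7.53 to 8.68 in CD61 high, nearly all of it *Cd68*. The 4 chondrocyte markers summed to 37.4 to 47.1 in CD61 low and 96.4 to 113 in CD61 high, and the 3 tendon markers to 20.5 to 25.1 and 14.5 to 16.1. Between days 1 and 14 the tendon sum went from 59.5 to 64.9 CPM to 32.1 to 32.3. The chondrocyte sum went from 79.8 to 81.2 to 102 to 121, and the macrophage sum from 2.23 to 2.45 to 3.64 to 3.74. By adjusted p alone, both tested tendon markers were lower on day 14, against 36% of all genes. Of 3 tested chondrocyte markers 2 were higher, and so was the 1 tested macrophage marker, against 32.6%. *Acta2*, a smooth muscle actin, made up nearly all of the muscle list and went from 1452 CPM on day 1 to 34.6 on day 10 and 194 on day 14. The part of these shifts in the results below was not tested. In bulk libraries, fewer cells of a type and less RNA per cell cannot be told apart.

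The lysyl oxidase that differed most was *Loxl4*, a paralog that carries scavenger receptor domains ahead of the catalytic domain. Its 2 libraries had 64.1 and 63.0 CPM on day 1, 817 and 814 on day 7, 541 and 521 on day 10, and 1525 and 1493 on day 14. Every later library was above both day 1 libraries, with a dip on day 10 between 2 higher days. On the log2(CPM + 1) scale it rose by 3.66 ± 0.035 (SE) on day 7, 3.04 ± 0.035 on day 10 and 4.55 ± 0.035 on day 14 (limma, adjusted p = 3.2e-31, 1.8e-29 and 7.7e-33). The mean on day 14 was 23.7 times that on day 1, and the increase ranked 41 among the 12725 genes tested.

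The *Loxl4* promoter is shown because this gene had the largest difference among the members. RefSeq promoter windows, on GRCm38.p6, were used for 4 of the 9 members (*Loxl4*, *Tll1*, *Pcolce* and *Pcolce2*), as the 250 bases before the annotated start. They were searched on both strands for the GC box GGGCGG, the hypoxia response core as ACGTG or GCGTG, the AP-1 motif TGANTCA, the RUNX motif TGTGGT and the TATA box TATAAA, and capitals mark the matches. Windows of the other members, *Lox* among them, were not searched, and this does not mean that the reference holds none for them.
Loxl4, chr19:42612807-42613056, minus strand: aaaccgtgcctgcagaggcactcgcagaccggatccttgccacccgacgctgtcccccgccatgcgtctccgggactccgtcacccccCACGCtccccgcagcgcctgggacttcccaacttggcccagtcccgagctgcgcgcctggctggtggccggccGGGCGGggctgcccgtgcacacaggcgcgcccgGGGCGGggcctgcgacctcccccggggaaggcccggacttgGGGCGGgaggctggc
In this window, 76% of the bases were G or C, against a mean of 53.2% over all windows. It held 3 GC boxes, beginning 89, 56 and 15 bases before the start, and 1 GCGTG on the other strand, written here as CACGC. Of 32851 windows of the same length, 32.7% held a GC box, 28.2% held GCGTG and 38.6% held either form of the hypoxia core, so each match is a common one.

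*Lox*, the founding member, was abundant throughout and moved in a different way. It had 728 and 739 CPM on day 1, 794 and 751 on day 7, 367 and 378 on day 10, and 811 and 819 on day 14. Only the day 10 libraries were below those of day 1. On day 7 the difference from day 1 was 0.07 ± 0.037 (limma, adjusted p = 0.081). With TMM scaling of the CPM values, or edgeR on the reads recovered from them, its adjusted p was below 0.01. On day 10 *Lox* fell by 0.98 ± 0.037 (limma, adjusted p = 2.5e-18), and on day 14 it rose by 0.15 ± 0.037 (adjusted p = 6.3e-04). That last difference is 1.11 times in mean CPM, and it missed the threshold without the first day 1 library (adjusted p = 0.014).

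*Loxl1*, best known for elastic fibre maintenance, and *Loxl3* were both lower than on day 1 on each later day. *Loxl1* had 75.2 and 73.6 CPM on day 1, 16.7 and 17.3 on day 7, 32.3 and 31.8 on day 10, and 14.4 and 15.6 on day 14. It fell by 2.07 ± 0.064 on day 7, 1.19 ± 0.064 on day 10 and 2.24 ± 0.064 on day 14 (limma, adjusted p = 3.7e-20, 5.7e-15 and 4.3e-21). *Loxl3* had 79.5 and 82.0 CPM on day 1, 36.7 and 37.1 on day 7, 48.6 and 50.3 on day 10, and 46.3 and 44.5 on day 14. Both genes had their day 10 libraries above those of day 7, opposite to *Lox* and *Loxl4*. The log2 fold change of *Loxl3* from day 1 was -1.11 ± 0.050 on day 7, -0.70 ± 0.050 on day 10 and -0.82 ± 0.050 on day 14 (limma, adjusted p = 1.9e-16, 2.8e-12 and 8.2e-14). *Loxl2* was close to the detection limit, with 1 to 21 reads in the 8 libraries and at most 0.659 CPM, and it stayed under the filter of more than 1 CPM in at least 1 library. The day 10 libraries, with 4 and 1 reads, were below those of day 1, with 8 and 21. With the filter lifted, its log2 fold change from day 1 was -0.41 on day 10 and -0.06 on day 14 (limma, adjusted p = 0.037 and 0.78), and none of the 5 comparisons passed 0.01.

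**Figure D1:**
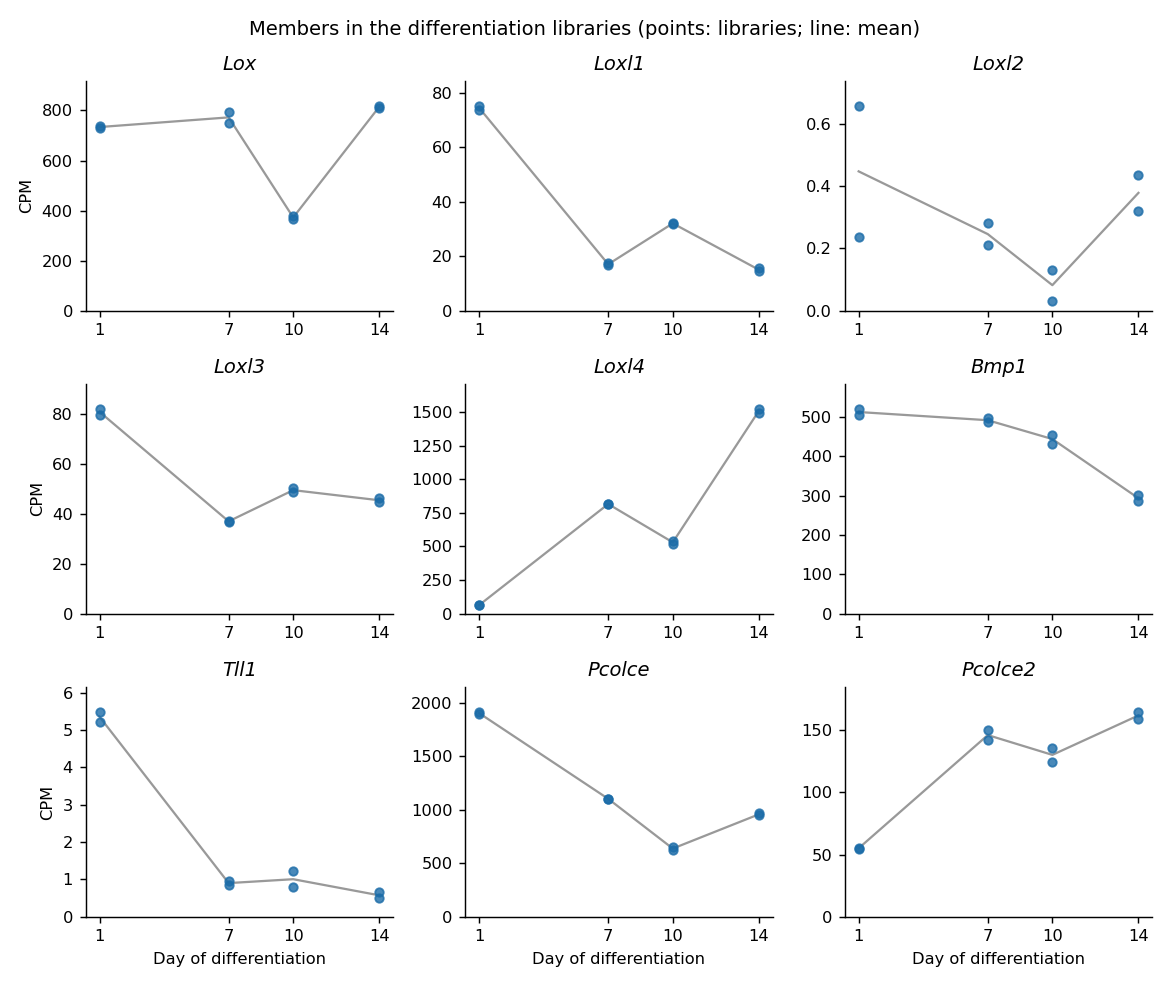
CPM (linear axis from 0, a separate scale for each gene) against day of differentiation, with 1 point per library and a line through the mean of the 2 libraries of each day. *Loxl4* and *Pcolce2* are highest on day 14, *Loxl1*, *Loxl3*, *Bmp1*, *Tll1* and *Pcolce* are highest on day 1, *Lox* is lowest on day 10 and highest on day 14, and *Loxl2* has its highest mean on day 1, where its libraries overlap those of days 7 and 14.

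Divided by transcript length, these levels can be set beside each other. Lengths for the differentiation table were the mean effective lengths of each gene in the sorted libraries, and not the gene lengths given with the CPM values. Of the summed level of the 5 lysyl oxidases per length, *Lox* held 71.6% ± 0.21 (SD, n = 2) on day 1, 41.7% ± 0.91 on day 7, 32.7% ± 0.92 on day 10 and 29.6% ± 0.46 on day 14. *Loxl4* held 7.62% ± 0.16, 54.2% ± 0.78, 57.4% ± 1.1 and 67.4% ± 0.47 on the same days. *Loxl4* was thus the least of the 4 well detected lysyl oxidases on day 1 and the first from day 7 on. *Loxl1* went from 9.94% to 0.745% and *Loxl3* from 10.8% to 2.26% between days 1 and 14, and *Loxl2* stayed at or under 0.0355% as a group mean. The summed level itself was 256 CPM per kilobase on day 1, 463 on day 7, 284 on day 10 and 689 on day 14.

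**Figure D2:**
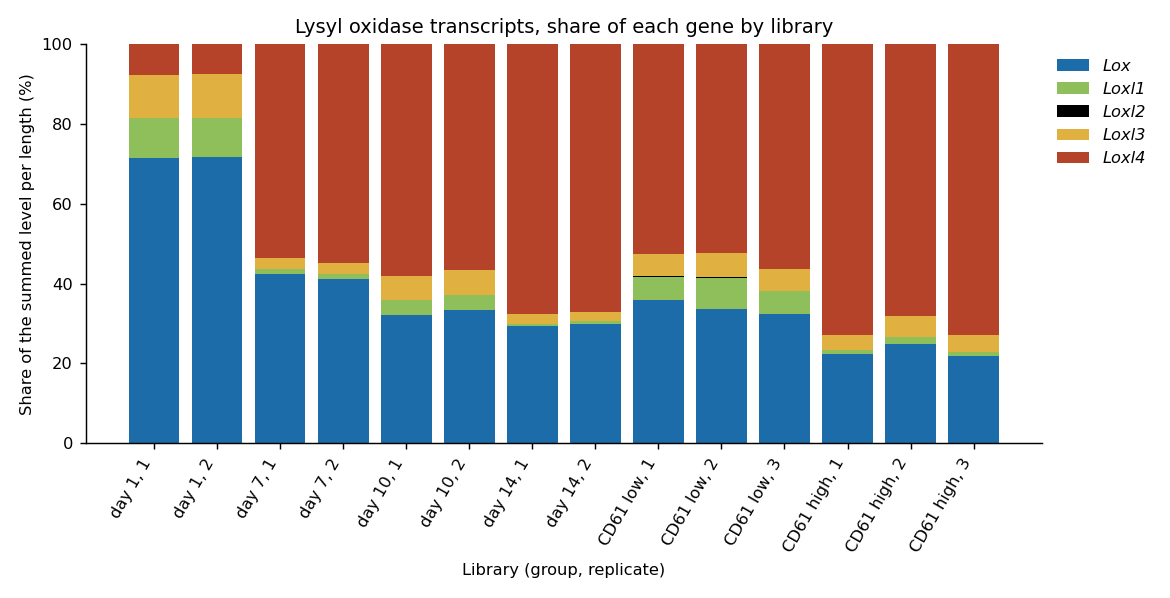
Share (%) of the summed level per length that each lysyl oxidase held, in a stacked bar for each of the 14 libraries, named by group and replicate. *Lox* holds 71.5% and 71.7% in the day 1 libraries, and *Loxl4* holds 67.0% and 67.7% on day 14 and 68.1% to 72.9% in CD61 high.

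*Bmp1*, the main C-proteinase gene of these cells, was lower at the end of the course. Its libraries had 504 and 521 CPM on day 1, 487 and 497 on day 7, 433 and 455 on day 10, and 301 and 285 on day 14. The groups did not overlap, and each day was below the one before. The difference on day 7 was -0.06 ± 0.038 (limma, adjusted p = 0.17), whereas it fell by 0.21 ± 0.038 on day 10 (adjusted p = 2.7e-05) and by 0.80 ± 0.038 on day 14 (adjusted p = 2.9e-16). *Tll1*, its tolloid-like paralog, had few reads from the start, 177 and 175 on day 1, 32 and 24 on day 7, 24 and 38 on day 10, and 17 and 18 on day 14. In CPM these are 5.22 and 5.49 on day 1 and 0.495 and 0.654 on day 14, a ratio of 9.32, and all later libraries were below day 1. On the log2(CPM + 1) scale, which understates changes of low genes, it fell by 2.01 ± 0.14 on day 14 (limma, adjusted p = 1.9e-12), after falls of 1.74 on day 7 and 1.67 on day 10 (adjusted p = 5.8e-11 and 1.0e-10). *Tll1* passed the filter through both day 1 libraries and 1 of day 10, and with the filter lifted for all genes the adjusted p on day 14 was 8.4e-06 (limma). *Bmp1* held 99.0% of the summed C-proteinase level per length on day 1 and 99.8% on day 14. In the promoter window of *Tll1*, 43.2% of the bases were G or C and none of the motifs was found.

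The enhancer genes went opposite ways. *Pcolce* had more CPM than any other member on days 1, 7 and 10 and less than *Loxl4* on day 14. It had 1893 and 1917 CPM on day 1, 1103 and 1104 on day 7, 625 and 651 on day 10, and 966 and 950.0 on day 14. All of its later libraries were below day 1, lowest on day 10. Its fold change from day 1 was -0.79 ± 0.037 on day 7, -1.58 ± 0.037 on day 10 and -0.99 ± 0.037 on day 14 (limma, adjusted p = 3.7e-16, 8.2e-23 and 1.5e-18). *Pcolce2* had 54.5 and 55.7 CPM on day 1, 142 and 149.8 on day 7, 124 and 136 on day 10, and 165 and 159 on day 14, all later libraries above day 1. It rose by 1.39 ± 0.045 on day 7, 1.22 ± 0.045 on day 10 and 1.54 ± 0.045 on day 14 (limma, adjusted p = 9.5e-20, 1.5e-18 and 7.2e-21). The *Pcolce2* share of the summed enhancer level per length went from 1.65% ± 0.010 (SD, n = 2) on day 1 to 8.91% ± 0.11 on day 14.

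Its promoter window is shown beside that of *Loxl4* because these were the 2 members called higher than on day 1 on each later day.
Pcolce2, chr9:95637378-95637627, plus strand: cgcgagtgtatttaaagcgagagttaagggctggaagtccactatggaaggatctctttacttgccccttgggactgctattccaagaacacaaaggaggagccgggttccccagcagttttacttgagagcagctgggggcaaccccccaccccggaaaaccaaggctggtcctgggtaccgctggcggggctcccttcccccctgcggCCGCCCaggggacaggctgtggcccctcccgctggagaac
It held 1 GC box, on the minus strand and thus written as CCGCCC, 40 bases before the start, and 61.2% of its bases were G or C. The window of *Pcolce* held 1 GC box at 60 and 1 GCGTG at 40 bases before the start, both on the other strand. Neither the AP-1, RUNX nor TATA motif was found in any of the 4 windows, while 6.75%, 14.05% and 12.4% of all windows held them.

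A member was called when its adjusted p was below 0.01 and its log2 fold change passed 1 in either direction, and these counts stand beside those of all genes tested. Of 8 members tested on day 7 against day 1, 2 were called higher (*Loxl4* and *Pcolce2*), against 4.49% of all genes, and 3 lower (*Loxl1*, *Loxl3* and *Tll1*), against 4.62%. On day 10 the same 2 members were called higher, against 6.06% of all genes, and 3 were called lower (*Loxl1*, *Tll1* and *Pcolce*), against 4.42%. On day 14 it was again *Loxl4* and *Pcolce2* that were called higher, against 7.51%, and *Loxl1* and *Tll1* lower, against 5.9%. By adjusted p alone, 3 members were higher on day 14, against 32.6% of all genes, and 5 were lower, against 36%. *Tll1* is among the lower members in each of these counts. It passed the filter through both day 1 libraries, where it was highest, and 1 of day 10, so its part in these counts is no support.

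The steps between neighbouring days show the dip on day 10. Whether the days shared a culture or library batch is not given in the sources used here, so a day cannot be told apart from its batch. From day 7 to day 10, *Lox* fell by 1.05 ± 0.037 (limma, adjusted p = 7.7e-18) and was the 1 member called lower, against 0.786% of all genes. *Loxl4* fell by 0.62 ± 0.035 and *Pcolce* by 0.79 ± 0.037, while *Loxl1* rose by 0.87 ± 0.064 and *Loxl3* by 0.41 ± 0.050 (adjusted p = 1.0e-13, 2.2e-15, 1.3e-11 and 1.4e-07). *Bmp1* fell by 0.15 and *Pcolce2* by 0.17 (adjusted p = 0.0017 and 0.0026), but both missed 0.01 without 1 library of day 7 or of day 10 (second day 7 library left out: 0.029 and 0.06, first day 10 library left out: 0.043 and 0.1). The difference of *Tll1* was 0.07 (adjusted p = 0.7). From day 10 to day 14, *Lox* and *Loxl4* were called higher, by 1.13 ± 0.037 and 1.50 ± 0.035 (limma, adjusted p = 6.8e-19 and 1.4e-21), against 2.09% of all genes. *Loxl1* was called lower, by 1.05 ± 0.064 (adjusted p = 2.8e-13), against 0.872%. Its change was just short of the limit, at -0.99, without the first day 14 library and also with TMM scaling of the CPM values. *Pcolce* rose by 0.59 ± 0.037 and *Pcolce2* by 0.31 ± 0.045, and *Bmp1* fell by 0.60 ± 0.038 (adjusted p = 5.1e-13, 1.3e-06 and 6.5e-13). *Loxl3* and *Tll1* differed by -0.12 and -0.34 (adjusted p = 0.039 and 0.042).

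In the sorted cells, 7 members passed the filter of at least 5 normalized counts in all 6 libraries, and 6 of them were higher in CD61 high than in CD61 low by adjusted p, against 19.4% of all genes. The 1 lower was *Loxl1*, against 16%. Called by both criteria were *Loxl4*, *Bmp1* and *Pcolce2* as higher, against 4.84% of all genes, and *Loxl1* as lower, against 4.37%. *Loxl4* had 317, 280.1 and 375 TMM-normalized CPM in CD61 low and 1121, 826 and 983 in CD61 high. The groups were well apart, and the log2 fold change was 1.59 ± 0.13 (edgeR, adjusted p = 5.4e-06). *Bmp1* had 234, 225 and 262 in CD61 low and 617, 650.5 and 659 in CD61 high, a change of 1.42 ± 0.077 (edgeR, adjusted p = 5.1e-07). *Pcolce2* had 51.9, 40.7 and 49.7 in CD61 low and 111, 95.1 and 112 in CD61 high, a change of 1.16 ± 0.11 (edgeR, adjusted p = 1.1e-05). Scaled by library size alone, its change was 0.86 and no longer past 1.

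*Lox*, *Loxl3* and *Pcolce* rose by less. *Lox* had 261, 214 and 263 TMM-normalized CPM in CD61 low and 428, 360.2 and 391 in CD61 high, a change of 0.68 ± 0.097 (edgeR, adjusted p = 2.5e-04). *Loxl3* had 30.5, 28.4 and 30.5 in CD61 low and 54.1, 55.6 and 54.2 in CD61 high, a change of 0.87 ± 0.073 (adjusted p = 6.6e-06). *Loxl3* was the tightest within each group of the 4 tested lysyl oxidases, relative to its level. *Pcolce* had 841, 819 and 759.8 in CD61 low and 1185, 1312 and 1282 in CD61 high, a change of 0.64 ± 0.073 (adjusted p = 5.3e-05). *Loxl1* went the other way, with 31.7, 36.7 and 33.6 in CD61 low and 13.0, 18.5 and 13.0 in CD61 high, and fell by 1.20 ± 0.14 (adjusted p = 5.9e-05). In none of these 4 genes did the groups overlap, and the share of all genes without overlap was not counted.

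*Tll1* and *Loxl2* were under the filter. *Tll1* had 18, 36 and 44 estimated counts in the CD61 low libraries and 2, 2 and 4 in the CD61 high ones, without overlap. Over the group totals of 98 and 8, the level in CD61 low was 10.0 times that in CD61 high, with an exact 95% interval of 4.90 to 23.9 that covers counting error only. With the filter on low counts lifted for all genes, its log2 fold change in CD61 high was -3.28 (edgeR, adjusted p = 3.4e-04). *Loxl2* had 11, 11 and 7 estimated counts in CD61 low and 10, 6 and 3 in CD61 high. These groups overlapped, and the interval of the ratio of CD61 low to CD61 high, 0.678 to 2.36, spans 1.

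**Figure D3:**
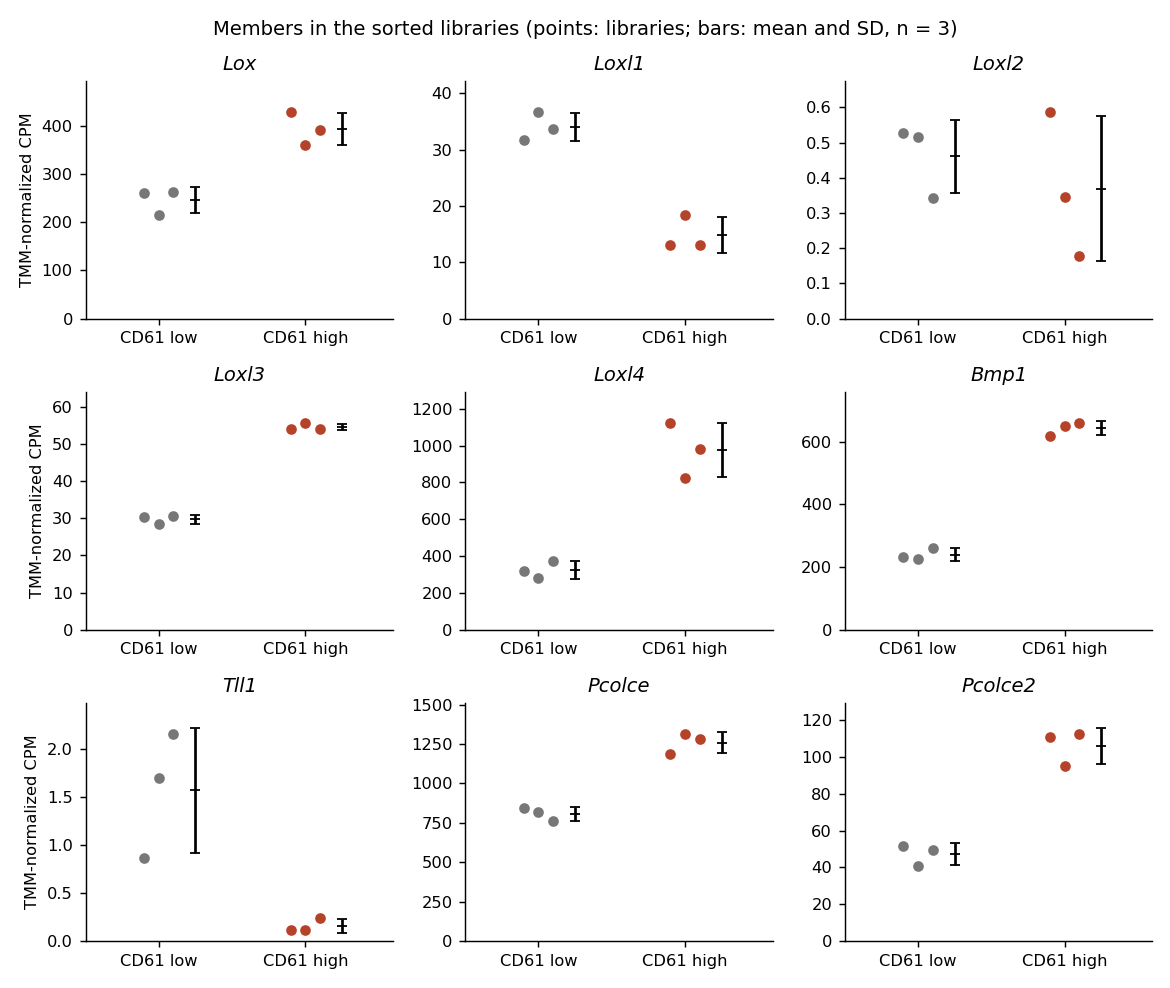
TMM-normalized CPM (linear axis from 0, a separate scale for each gene) in the CD61 low and CD61 high libraries, with points for libraries and bars for mean and SD (n = 3). *Lox*, *Loxl3*, *Loxl4*, *Bmp1*, *Pcolce* and *Pcolce2* are higher in CD61 high, *Loxl1* and *Tll1* are lower, all without overlap, and *Loxl2* overlaps. The share of all genes without overlap was not counted.

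By level per length, which in the sort is the TPM estimate summed over the transcripts of a gene, *Pcolce* came first in both sorted groups with 1027 ± 36 (SD, n = 3) in CD61 low and 1280 ± 31 in CD61 high. *Loxl4* came second, at 178 ± 32 and 445 ± 91. In CD61 low *Lox* (112 ± 13) and *Bmp1* (110 ± 9.2) overlapped, and so did *Loxl1* (20.9 ± 1.8) and *Loxl3* (18.8 ± 1.8). In CD61 high *Bmp1* (237 ± 4.5) stood above *Lox* (142 ± 19), and *Loxl3* (26.9 ± 1.3) above *Loxl1* (7.38 ± 1.3). *Pcolce2* lay between these pairs in both groups, and *Tll1* and *Loxl2* were last, with overlapping ranges in CD61 high. Within the lysyl oxidases, the share of *Loxl4* was 53.8% ± 2.3 in CD61 low and 71.3% ± 2.8 in CD61 high, and that of *Loxl1* was 6.42% ± 1.2 and 1.24% ± 0.44.

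In the differentiation libraries the order per length began with *Pcolce* on each day, at 1339 ± 12 CPM per kilobase (SD, n = 2) on day 1 and 673 ± 8.2 on day 14. *Lox* (183 ± 1.9) and *Bmp1* (130 ± 3.0) followed on day 1, and *Loxl4* (464 ± 7.0), *Lox* (204 ± 1.5) and *Bmp1* (74.4 ± 2.9) on day 14. No neighbours overlapped between their 2 libraries on any day. The order rests on the lengths used, and with the longest annotated transcript of each gene *Loxl4* came before *Pcolce* on day 14, while *Loxl1* and *Loxl3*, and *Loxl4* and *Pcolce2*, changed places on day 1.

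Set side by side, the day 14 against day 1 and the CD61 high against CD61 low comparisons, which share no library, had the same direction for some members and opposite directions for others. *Loxl4* and *Pcolce2* were called higher in both, and *Loxl1* lower in both. Of all genes, 7.51% and 4.84% were called higher on day 14 and in CD61 high, and 5.9% and 4.37% lower. The share called alike in both was not counted. By adjusted p alone *Lox* rose by 0.15 on day 14, which did not hold with the filter lifted, and by 0.68 in CD61 high. *Tll1* fell by 2.01 on day 14, on the log2(CPM + 1) scale. With the filter on low counts lifted, its edgeR change in CD61 high was -3.28. These scales differ. As ratios of means, day 1 was 9.32 times day 14 and CD61 low was 10.0 times CD61 high. *Bmp1* had a log2 fold change of -0.80 on day 14 and of 1.42 in CD61 high. *Loxl3* had -0.82 and 0.87, and *Pcolce* had -0.99 and 0.64. The experiments differ in days of culture, in the sorting itself and in the RNA isolation kit. They also differ in how reads were counted and scaled, and the difference between the comparisons was not tested.

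**Figure D4:**
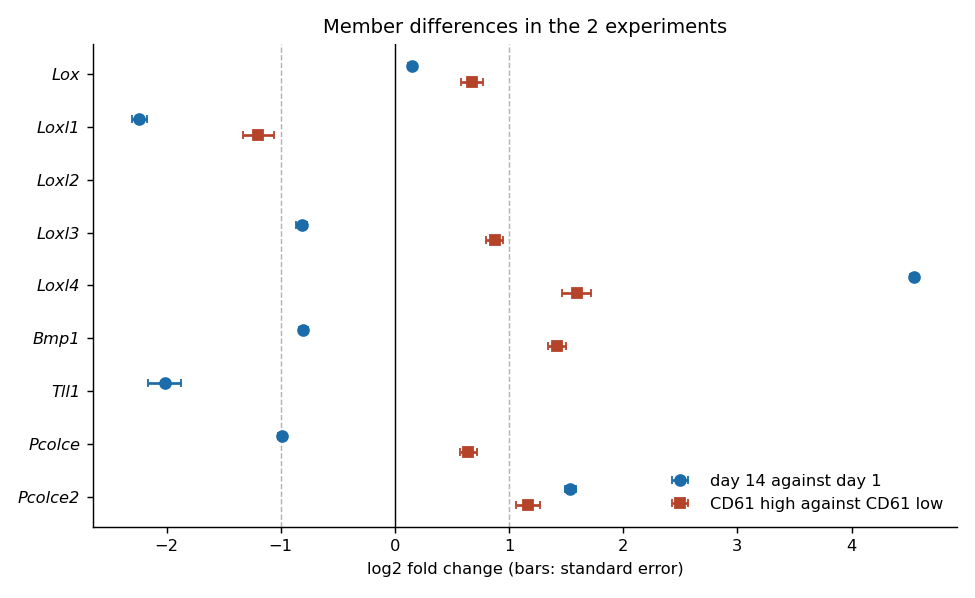
Log2 fold change (x axis, with bars for the standard error) of each member on day 14 against day 1 (circles, limma) and in CD61 high against CD61 low (squares, edgeR), with dashed lines at 1 and -1. The limma values are on the log2(CPM + 1) scale, which differs from that of edgeR. The edgeR standard errors are derived from its F statistic. *Loxl3*, *Bmp1* and *Pcolce* lie on opposite sides of 0 in the 2 comparisons. *Loxl2* was under the filter on low values in both comparisons and *Tll1* in the second, so they are not drawn there.

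*Bmp1* gives rise to a short protein, BMP1, and a longer one, mammalian tolloid, which continues past the point where the short form ends. The sorted files give estimates per transcript for 7 of its 77 annotated transcripts. Most of the estimate lay on Bmp1-205, which is annotated as nonsense_mediated_decay. It held 74.6%, 72.6% and 74.8% of the *Bmp1* TPM in the CD61 low libraries and 76.4%, 80.7% and 83.2% in the CD61 high ones. Bmp1-201, the protein-coding long form of 991 codons, held 17.3%, 18.1% and 18.4% in CD61 low and 15.4%, 12.3% and 12.5% in CD61 high. Neither share overlapped between groups, and the mean difference was 6.15 percentage points for Bmp1-205 and -4.52 for Bmp1-201. In a two-sided exact permutation test both gave p = 0.1, the smallest that 3 against 3 allows. In TPM both transcripts were higher in every CD61 high library than in any CD61 low one, with Bmp1-205 at 75.4 to 90.1 in CD61 low and 182 to 199.9 in CD61 high, and Bmp1-201 at 18.2 to 22.2 and 28.6 to 36.7.

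**Figure D5:**
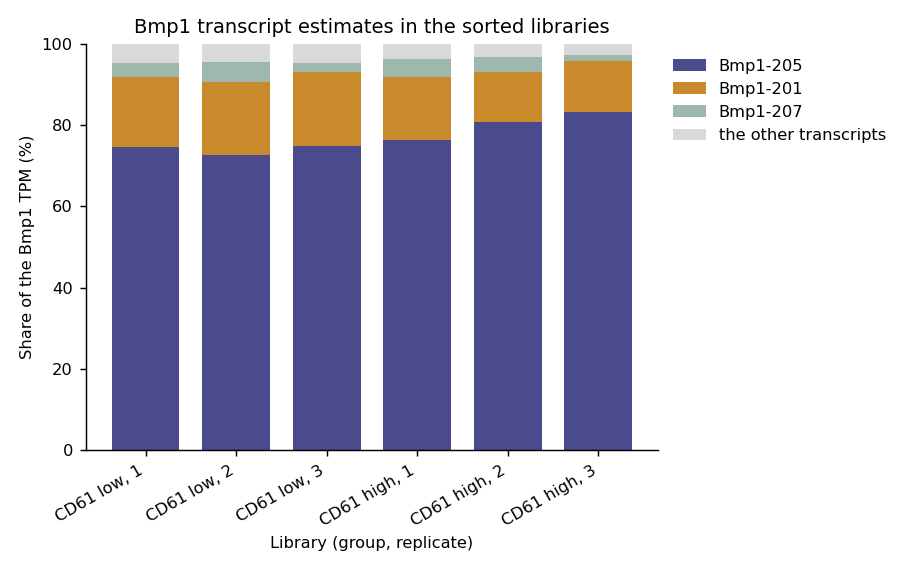
Share (%) of the *Bmp1* TPM on each transcript, in a stacked bar for each of the 6 sorted libraries, named by group and replicate. Bmp1-205 holds 72.6% to 74.8% in CD61 low and 76.4% to 83.2% in CD61 high.

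What these estimates can tell is limited by the index. In GENCODE M39, Bmp1-205 has the exons of Bmp1-201, less 162 bases of exon 1, with 2 additions, 37 bases at the start of exon 5 and 658 bases at the start of exon 16. The files give Bmp1-201 a length of 3684 bases, 123 fewer than its 3807 in M39, so the indexed model of this transcript differs from the one described here, and where it differs was not analysed. The lengths of the other 6, Bmp1-205 among them, were equal. The first addition brings a stop codon after 194 codons. The second one holds all 323 bases of the last exon of Bmp1-277, a protein-coding transcript of the short form in GENCODE M39 that is not among the 7, and none of those bases is in Bmp1-201. Among the 7, that exon lies whole in Bmp1-205 and Bmp1-206 and in part in Bmp1-207, so reads from it could be placed on these only, and the shares above do not measure short against long form. How many reads of Bmp1-205 came from it was not tested. The bases of the exon 5 addition up to its stop are shown because they end the reading frame of the transcript with most of the estimate, on the minus strand of GRCm39 and with the stop codon in capitals.
Bmp1-205, chr14:70745636-70745654: ctcgggaccaccccccTGA

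The other members with several transcripts above 5% of the TPM showed no separation of the groups. Lox-201 held 87.3% to 100% in CD61 low and 91.7% to 100% in CD61 high (two-sided exact permutation p = 0.7), and Loxl4-201 held 91.1% to 94.5% and 89.8% to 93.8% (p = 0.4). Pcolce2-201 held 44.4% to 62.9% and 50.7% to 59.2% of the TPM (exact permutation p = 1), but 88.7% to 94.4% and 91.1% to 93.5% of the estimated counts, the other transcript being 623 bases long.

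The substrates and partners of these enzymes were read from lists that were drawn up with the members. Each count below stands beside that of all genes tested, of which 4.84% were called higher and 4.37% lower in CD61 high, and 7.51% and 5.9% on day 14. All 11 fibrillar procollagen chains were tested in the sort, and 8 were called higher and 2 lower in CD61 high, with a median log2 fold change of 1.18 where the median of all genes was 0.0035. *Col5a3* (-3.30) and *Col11a2* (2.13) had the largest changes (edgeR, adjusted p = 8.4e-07 and 5.3e-07). On day 14 against day 1, 2 of the 11 were called higher and 3 lower, with a median of -0.03 where that of all genes was also -0.03, and the largest changes were those of *Col24a1* (4.80) and *Col3a1* (-3.57), with limma adjusted p = 6.0e-24 and 2.9e-30. Of the procollagen N-proteinases and other tolloid-type proteases, 2 of 6 were tested. *Adamts14* fell by 1.18 and *Adamts2* rose by 0.46 in CD61 high (edgeR, adjusted p = 0.002 and 0.0011), and both fell on day 14, by 0.63 and 0.44 (limma, adjusted p = 3.0e-06 and 9.6e-10).

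Of 11 tested substrates of tolloid proteinases other than fibrillar collagens, 3 were called higher and 3 lower in CD61 high (median -0.36, all genes 0.0035), against 4.84% and 4.37% of all genes. On day 14, 1 was called higher and 4 lower (median -0.33, all genes -0.03), against 7.51% and 5.9%. *Dmp1*, a phosphoprotein of mineralizing matrix that is also among the osteocyte markers, rose by 4.29 in CD61 high and by 4.83 on day 14 (edgeR adjusted p = 4.8e-06, limma adjusted p = 4.1e-26). *Ogn*, the small proteoglycan osteoglycin, fell by 4.08 in CD61 high and its log2 fold change on day 14 was -3.98 (adjusted p = 4.1e-08 and 9.3e-29). Lysyl hydroxylation and procollagen folding genes act inside the cell before secretion, and hydroxylysine is a substrate of the lysyl oxidases. In CD61 high, 12 of the 15 tested rose and 1 fell by adjusted p, against 19.4% and 16% of all genes, with 3 called higher and 1 lower (median 0.56). On day 14, 7 rose and 5 fell, against 32.6% and 36%, with 4 called higher and 1 lower (median 0.03). The difference between the comparisons was not tested. The prolyl 3-hydroxylase gene *P3h2* rose by 2.16 and 4.58, and *P4ha2*, a prolyl 4-hydroxylase subunit gene, by 1.19 and 2.81 (edgeR adjusted p = 6.8e-07 and 1.9e-06, limma adjusted p = 9.4e-30 and 8.5e-28).

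The last list held scaffolds, elastic fibre proteins and copper supply genes for lysyl oxidase. Of 12 tested, 5 were called higher and 1 lower in CD61 high (median 0.78), against 4.84% and 4.37% of all genes, and 1 was called higher and 5 lower on day 14 (median -0.55), against 7.51% and 5.9%. *Eln*, which encodes elastin, a substrate of the lysyl oxidases, had 3.29 and 4.25 CPM on day 1 and 137 and 156 on day 14. It rose by 4.96 on day 14 (limma, adjusted p = 2.7e-27) and by 2.13 in CD61 high (edgeR, adjusted p = 7.2e-07). *Fbn1*, the microfibril gene, fell by 3.63 and by 2.70 (adjusted p = 5.6e-22 and 7.2e-07). The 3 copper supply genes did not go one way on day 14. *Atp7a*, the copper pump that loads secreted copper enzymes, rose by 0.19, while *Atox1*, the copper chaperone that delivers to it, fell by 0.62 and *Slc31a1*, the copper importer, by 0.22 (limma, adjusted p = 0.0048, 5.1e-11 and 1.2e-05). In CD61 high they differed by 0.02, 0.18 and 0.03, and none passed (edgeR, adjusted p = 0.96, 0.35 and 0.69).

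Over the 8 differentiation libraries, the genes whose log2(CPM + 1) was most like that of each member were sought among 10313 genes whose mean CPM was 5 or more. These libraries fall on 4 days, so many genes reach a high Pearson r, and the values are a description. For *Loxl4* they were *Fam3c* (0.9997), *Selenbp1* (0.9994) and *Btla* (0.9992), and for *Pcolce2* *Epas1* (0.998), *Ppm1e* (0.9979) and *Fxyd1* (0.9976). For *Lox* they were *Anp32a* (0.9969), *Gnb1* and *Nup37*, for *Loxl1* *Ankfy1* (0.9967), *Hacd2* and *Ifi30*, and for *Loxl3* *Flywch1* (0.9962), *Lrba* and *Chd3*. For *Bmp1* they included *Dnmt1* (0.9921) and *Mettl13*, for *Tll1* they were *Mrpl41* (0.9964), *Mcc* and *Mmp2*, and for *Pcolce* *Rhobtb3* (0.9964), *B3galnt1* and *Fndc1*. No member was among the 3 genes most like another member.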

How the data were processed

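For differentiation, STAR and HTSeq were the aligner and counter, and the authors deposited CPM values, scaled to 1000000 per library. Of these values, 99.998% lay within 0.01 of a whole read, which gave the reads per library. Among the members, *Loxl2* and *Tll1* had the fewest reads and so the largest counting error. For the sort, the authors quantified reads with Salmon and deposited estimated counts and TPM per transcript; both are inferred where transcripts share bases. The submitters' processing notes name GRCm39. Of 116747 transcripts, 115556 were matched to GENCODE M39, and their estimated counts were summed per gene and rounded.

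CPM above 1 in at least 1 library was required, and log2(CPM + 1) was compared over all 8 libraries with limma 3.58.1 (trend). Sorted libraries were compared with edgeR 4.0.16 (quasi-likelihood test) in R 4.3.3 after TMM scaling over all genes, keeping genes with 5 or more normalized counts in every one of the 6 libraries. The standard errors of the sort were the absolute log2 fold change divided by the square root of the edgeR F statistic. Adjustment was by Benjamini-Hochberg over 12725 and 12077 genes, at 0.01 and a log2 fold change past 1. A gene is said to have risen or fallen where adjusted p alone passed. Estimated TPM shares were compared for all transcripts with at least 5% of a gene in 1 library, coding or not. Replicates differed by more than counting noise (chi-square per gene 2.35 to 20.8). The fits were tested on simulated data in which all genes had the same fixed spread between replicates. That spread was not matched to the genes here, so this checks the calculation and not the error rates.

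The members and lists were chosen with earlier results of these data known. All members are named; of each list, at most 2 genes per comparison with the largest change past the threshold, both tested N-proteinase genes, and the 3 copper supply genes, chosen after their values were seen; and the 3 genes most like each member, of which 1 is not reported here. Alternatives were a pseudocount of 0.1, other filters, edgeR on recovered reads, TMM scaling of CPM, DESeq2 1.42.0, other size factors, a transcript length offset, a replicate block and each library left out.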

Additional observations from a re-analysis of the deposited data

How the results depend on the processing

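No alternative that kept all libraries reversed a member: of 291 values of members, 287 stayed on their side of the limits for a call, 2 lost the call and 2 gained it. *Lox* at day 10 against day 1 passed a change of 1 with edgeR on recovered reads and with TMM scaling (-1.002 and -1.001). With TMM scaling, *Loxl1* at day 14 against day 10 was -0.99 and members called lower there went from 1 to 0. With a mean of at least 5 CPM, *Tll1* was not tested and members called lower at day 14 against day 1 went from 2 to 1. In the sort, no filter and filterByExpr each gave 2 members called lower in place of 1, through *Tll1*, which filterByExpr let in by its CD61 low counts alone, so that this second count is no support. Scaling by library size alone shifted the median of all genes by -0.293, and calls of all genes went from 585 higher and 528 lower to 316 and 963. No member changed direction. With the filter lifted, *Lox* at day 14 against day 1 (adjusted p = 0.011) and *Bmp1* and *Pcolce2* at day 10 against day 7 (0.027 and 0.034) missed the adjusted p, and with TMM scaling or edgeR on recovered reads *Lox* at day 7 against day 1 passed it, at 0.12 (0.0072 and 0.0069). The cause was not tested, beyond the genes each filter let in or left out.

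With each library left out in turn, 359 of 362 values of members kept their side. Members called lower at day 14 against day 10 ranged from 0 to 1, since *Loxl1* was -0.99 without the first day 14 library. *Pcolce* at day 14 against day 1 reached -1.003 without the same library, and *Tll1* at day 10 against day 7 ranged from -0.089 (without the second day 10 library) to 0.23 (without the first). A day left with 1 library was assumed to vary like the others. With the replicate number as a block, members called higher and lower stayed at 2 and 3 (day 7), 2 and 3 (day 10) and 2 and 2 (day 14 against day 1) and at 3 and 1 in the sort. Correlations of deviations for same-numbered libraries were -0.025 to 0.061 in differentiation and -0.321, 0.220 and -0.061 in the sort, so no common pairing by number showed. These 3 values of the sort cannot exclude that same-numbered libraries came from the same group of cells. The shares of Bmp1-205 and Bmp1-201 kept their direction from counts (5.60 and -4.10 percentage points).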
